A study of Mus musculus with 18 samples.

Results

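Multipotent progenitors (MPP) of the mouse fetal liver (FL) were compared with MPP of the adult bone marrow (BM) over all genes measured. The comparison used 6 of the 18 arrays of the series, 3 of FL MPP and 3 of BM MPP, picked by title, source name and labelled cell type. FL MPP came from livers of E13.5 embryos and BM MPP from marrow of adult mice aged 3 to 12 months, all of strain C57Bl/6J. In both, MPP were sorted by flow cytometry among LSK cells (lineage-negative, Sca-1-positive, Kit-positive) on Cd150 and Cd48 (the gates themselves are not stated in these sources). The other 12 arrays, 3 each of long-term (LT-HSC) and short-term hematopoietic stem cells (ST-HSC) of FL and of BM, helped to estimate the spread of each gene and were used to ask where MPP differed from stem cells. Each sample gave 1 array, for which 2 ng of total RNA went through 10 cycles of PCR and then in vitro transcription into biotin-labelled cRNA. Whether the arrays within a group stem from different animals or pools is not stated, so the tests read the spread among these samples, which may be technical.

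MPP are the multipotent cells just downstream of stem cells and give rise to the lymphoid and the myeloid lineages. In the fetal liver the pool of stem and progenitor cells expands, while in the adult marrow most stem cells are quiescent and progenitors feed steady production of blood. A fetal program that includes the RNA-binding protein Lin28b, which blocks maturation of let-7 microRNAs, is known to be active in fetal blood progenitors and to be shut down after birth.

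The free-text descriptions go against the other labels. They speak of mice transplanted with marrow, and name an sgRNA against Ezh2 for FL MPP a and b (and 1 array each of FL ST-HSC and FL LT-HSC) and a luciferase sgRNA for the rest. The titles, source names and stages were used. Ezh2, the methyltransferase of Polycomb repressive complex 2, was at 10.68, 10.72 and 10.79 in FL MPP a, b and c, against 10.75, 10.89 and 10.66 in BM MPP a, b and c (log2 signal). The values of the groups overlap. They read the amount of RNA and not the sequence of the gene, so they do not tell which labels are right. For some lists, counts below are also given for a restricted fit that leaves out the 4 arrays described as sgEzh2. In it FL MPP is array c alone and is assumed to vary like the other groups. Calls were lost in this fit in further lists where its count is not given. Among them were those of Mycn, Klf9, Dnmt3b, Il1r1, Cxcr4, Prss34 and C1qa, which kept their direction.

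Arrays of the same MPP group correlated at 0.992 to 0.995 over genes (0.9917 to 0.9945 before rounding), and arrays of FL MPP and BM MPP at 0.974 to 0.979. Medians of the 6 arrays lay between 7.76 and 7.83. The deposited table holds no detection calls, so a low value may be background, and the number of arrays limits the precision. Of the sort markers, Kit, the stem cell factor receptor, was at 13.09, 13.04 and 13.08 in FL MPP, against 13.10, 13.11 and 13.10 in BM MPP. Cd48 was at 12.35 in each FL MPP array and at 12.35, 12.19 and 12.25 in BM MPP. Slamf1, which encodes Cd150, was at 6.43, 6.86 and 6.84 in FL MPP, against 7.18, 7.42 and 7.16 in BM MPP, a difference of -0.54 ± 0.18 (log2 ± SE) with a limma adjusted p of 0.109. The FL arrays thus lay below the BM arrays for Slamf1 without passing the test. It was called lower with array weights (adjusted p = 0.00553), from only the 6 MPP arrays (0.0292, or 0.0307 with a replicate block) and without 4 stem cell arrays with a narrower spread of values (0.0138). Among lineage markers of the sort, 1 of 8 measured was lower in FL MPP (Klrb1c, an NK cell receptor, -0.79 ± 0.17) and 7 were not called, with a median of -0.12. Klrb1c lost its call without FL MPP b (limma adjusted p = 0.063) or BM MPP b (0.0723). Its FL MPP values lay below the first quartile of all genes on their arrays. Of the Y-linked genes, Uty was at 7.32, 7.18 and 6.98 in FL MPP, against 3.89, 4.03 and 3.86 in BM MPP, and Kdm5d was higher by 2.41 ± 0.20, while Eif2s3y was not called (0.23 ± 0.20). Uty and Kdm5d were also higher in FL LT-HSC and FL ST-HSC (Uty by 3.15 and 3.72), and Eif2s3y was not called there either. The labels used here do not give sex. A difference in donor sex would run along with stage and with tissue (liver or marrow). The sex, stage and tissue of the donors thus cannot be told apart, for Y-linked genes or for any other difference between FL and BM given below. The part of sex in those differences was not tested.

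FL MPP and BM MPP differed in a group of genes known from fetal tissues, which were higher in FL MPP, and in larger groups of neutrophil granule, antigen presentation, interferon response and immediate early genes, which were lower. Of 19505 genes tested, 1067 (5.47%) passed at a limma adjusted p under 0.05. Of these, 375 (1.92%) were higher and 692 (3.55%) lower in FL MPP, and the median difference over all genes was 0.04 on the log2 scale. In each of the 1067, all 3 arrays of one group lay above all 3 of the other, which 32.9% of all genes did (19.1% with FL above, 13.8% with FL below). Of the genes called, 109 were at least 2-fold higher and 307 at least 2-fold lower, and 7 were at least 8-fold higher and 21 at least 8-fold lower. The restricted fit without the sgEzh2 arrays called 261, 70 higher and 191 lower. The spread was estimated over all 18 arrays. From only the 6 MPP arrays 2760 genes were called, 1413 higher and 1347 lower, so that the excess of lower over higher calls was not seen there. Differences below are FL MPP minus BM MPP on the log2 scale with the standard error of the fit, and a member of a gene list is said to be higher or lower only where it was called. Counts of members called stand beside the 5.47% of all genes. In a list with few calls the share can lie near this one, and its calls are those of single genes.

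**Figure D1:**
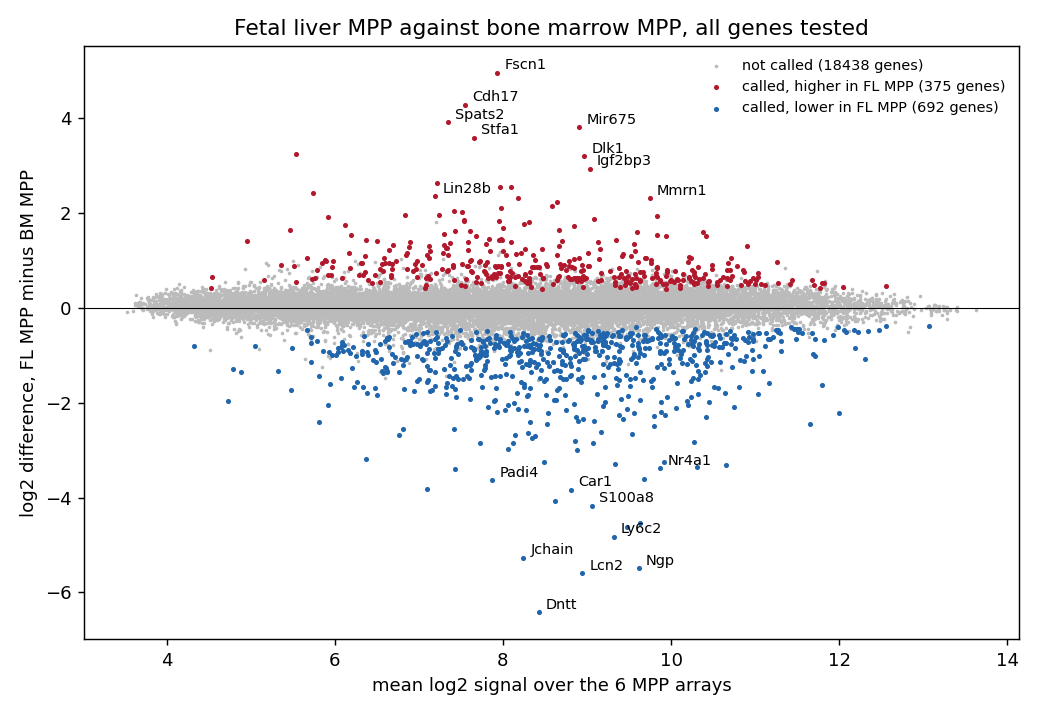
Each point is 1 of 19505 genes, with its mean log2 signal over the 6 MPP arrays on the horizontal axis and its log2 difference, FL MPP minus BM MPP, on the vertical axis. The 375 genes called higher in FL MPP are red and the 692 called lower are blue; the largest negative differences (Dntt, Lcn2, Ngp, Jchain) exceed the largest positive ones (Fscn1, Cdh17) in size.

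Regulators known from fetal and oncofetal tissue were higher in FL MPP. Of 9 measured, 6 were higher, none was lower, and the median was 1.05. Igf2bp3, an RNA-binding protein that binds Igf2 mRNA, was at 10.57, 10.42 and 10.49 in FL MPP, against 7.71, 7.40 and 7.603 in BM MPP, a difference of 2.93 ± 0.18 or 7.596-fold (adjusted p = 7.95e-09). Lin28b was at 7.88, 8.47 and 8.75 in FL MPP, against 6.12, 5.81 and 6.13 in BM MPP (2.35 ± 0.26, adjusted p = 1.12e-05). For both genes the groups did not overlap, and Lin28b varied more among the FL arrays, with array a the lowest. The transcription factors Mycn (1.599 ± 0.24), Arid3a (1.31 ± 0.14) and Plag1 (1.05 ± 0.18) and the chromatin protein Hmga2 (0.73 ± 0.19) were also higher. Lin28a (0.44), the ubiquitin ligase gene Trim71 (0.30) and the transcription factor gene Sox17 (0.19) were not called. In the restricted fit 3 of the 9 were higher.

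Among imprinted genes, 4 of 22 measured were higher, 1 was lower and 17 were not called, with a median of 0.05. Dlk1, a membrane protein of the Notch ligand family that is also a marker of hepatoblasts, was at 10.67, 10.56 and 10.46 in FL MPP, against 7.45, 7.27 and 7.39 in BM MPP, 9.14-fold higher (3.19 ± 0.16, adjusted p = 6.99e-10). Ndn, a growth suppressor of the MAGE family, was at 9.68, 9.72 and 9.59 in FL MPP, against 7.50, 7.44 and 7.58 in BM MPP (2.16 ± 0.20). For both, all FL arrays lay above all BM arrays, which lay close together. The growth factor gene Igf2 (1.25 ± 0.16) and the zinc finger gene Peg3 (0.94 ± 0.17) were higher, and Phlda2, a pleckstrin homology domain gene known for restraining placental growth, was lower (-1.17 ± 0.31). Grb10 (0.89), Peg10 (0.79), Cdkn1c (0.11) and Gnas (-0.41) were among those not called.

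Of 5 microRNA genes tested, 1 was called. Mir675, the microRNA gene within the imprinted non-coding RNA H19, was at 10.92, 10.85 and 10.65 in FL MPP, against 7.03, 6.93 and 7.05 in BM MPP, 14.02-fold higher (3.81 ± 0.16, adjusted p = 1.97e-10). All FL arrays lay more than 3 log2 units above all BM arrays. A probe set of this kind reads the host RNA as well as the hairpin, and these cannot be told apart, so the value says nothing of the mature microRNA by itself. H19 itself was not analysed here. The 2 mature sequences of the hairpin are shown because Mir675 is the microRNA gene called, and 2 let-7 sequences because let-7 is the known target of Lin28b (the levels of let-7 were not analysed here). Sequences are from RefSeq on GRCm38.p6, 5′ to 3′, with the seed (bases 2 to 8) in capitals. The miR-675 sequences lie on the minus strand at chr7:142577112-142577133 (5p) and chr7:142577078-142577099 (3p), let-7a at chr13:48538239-48538260 on the minus strand and let-7g at chr9:106178846-106178867 on the plus strand.
mmu-miR-675-5p: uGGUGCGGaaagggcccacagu
mmu-miR-675-3p: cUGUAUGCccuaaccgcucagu
mmu-let-7a-5p: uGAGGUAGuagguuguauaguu
mmu-let-7g-5p: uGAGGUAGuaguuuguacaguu
The let-7 sequences share 1 seed, which neither miR-675 sequence carries.

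Among genes outside these lists, Fscn1, which bundles actin filaments, was at 10.42, 10.31 and 10.50 in FL MPP, against 4.99, 5.52 and 5.86 in BM MPP, 31.0-fold higher (4.95 ± 0.31, adjusted p = 1.16e-08). Cdh17, a cadherin known from liver and intestine, was at 9.70, 9.43 and 9.93 in FL MPP, against 5.66, 5.33 and 5.23 in BM MPP (4.28 ± 0.19). In both genes the BM arrays lay below the first quartile of all genes on their array, so how far these values stand above background is unknown. Spats2 (3.91 ± 0.20), Tmem47, a junction protein gene (2.63 ± 0.19), St8sia1, the sialyltransferase that makes ganglioside GD3 (2.54 ± 0.17), the secreted glycoprotein gene Stc1 (2.32 ± 0.21) and Mmrn1, an extracellular protein of platelets and endothelium (2.31 ± 0.21), followed. Stfa1, a stefin that inhibits cysteine proteases, was at 10.22, 8.46 and 9.67 in FL MPP, against 5.96, 6.05 and 5.58 in BM MPP (3.58 ± 0.63, adjusted p = 0.00128). It varied most among the FL arrays, with array b lowest, and as near-identical paralogs exist its signal is uncertain.

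**Figure D2:**
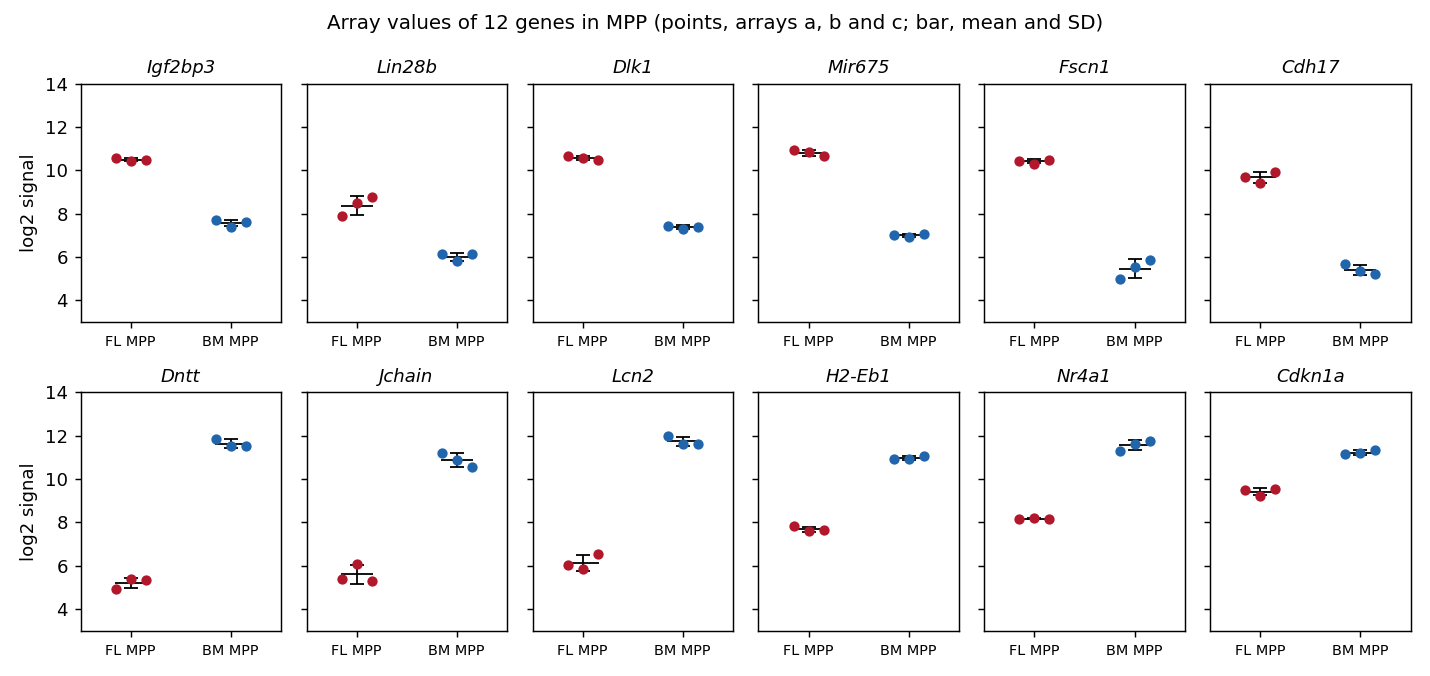
Log2 signal (vertical axis, shared by all panels) of 12 genes in the 3 FL MPP arrays (red) and the 3 BM MPP arrays (blue), points being arrays a, b and c and bars the mean ± SD. In the upper row (Igf2bp3, Lin28b, Dlk1, Mir675, Fscn1, Cdh17) the FL arrays all lie above the BM arrays, and in the lower row (Dntt, Jchain, Lcn2, H2-Eb1, Nr4a1, Cdkn1a) all lie below.

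Neutrophil genes formed the group with the most negative median. Of 20 secondary granule and late neutrophil genes, all measured, 14 were lower in FL MPP, none was higher, and the median was -2.28. The difference was not particular to MPP. In LT-HSC 19 of the 20 were lower (median -4.05) and in ST-HSC 18 (median -2.90). Over all 19505 genes, 1495 were called in LT-HSC and 3638 in ST-HSC, in either direction. Lcn2, the iron-scavenging lipocalin of secondary granules, was at 6.04, 5.83 and 6.55 in FL MPP, against 11.98, 11.62 and 11.62 in BM MPP, 48.4-fold lower in FL MPP (adjusted p = 3.59e-07). Ngp, neutrophilic granule protein, was at 7.07, 6.59 and 6.95 in FL MPP, against 12.48, 12.29 and 12.32 in BM MPP (-5.49 ± 0.37). Neither gene came near to an overlap between the groups. Camp, the cathelicidin precursor (-4.61 ± 0.34), the calgranulins S100a8 (-4.18 ± 0.53) and S100a9 (-4.06 ± 0.42), the collagenase Mmp8 (-3.83 ± 0.38), Padi4, which citrullinates histones (-3.64 ± 0.23), and the secreted Retnlg (-3.39 ± 0.40) were lower as well. Ltf, lactoferrin, was lower by a smaller amount (-2.22 ± 0.42), and Cybb, the catalytic subunit of the phagocyte oxidase, did not pass (-1.19 ± 0.36, adjusted p = 0.0632). The mean log2 signal over the 20 genes was 6.82 to 7.04 in FL MPP, against 9.41 to 9.84 in BM MPP, with BM MPP a highest. In sorted bulk samples fewer cells of a type and less RNA per cell cannot be told apart, which holds for this and each later result. In the restricted fit 10 of the 20 were lower.

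Primary granule and granulocyte-monocyte priming genes, which are made earlier in myeloid differentiation, were lower in 10 of 16, with a median of -1.05 and none higher. Elane, neutrophil elastase, was at 11.62, 9.98 and 11.05 in FL MPP, against 13.06, 13.13 and 13.11 in BM MPP (-2.21 ± 0.32, adjusted p = 0.000187). Ms4a3, a marker of granulocyte-monocyte progenitors, was at 9.99, 8.16 and 9.64 in FL MPP, against 11.48, 11.71 and 11.50 in BM MPP (-2.30 ± 0.50). The BM arrays were close together in both, and FL MPP b was the lowest FL array. The same array was lowest in S100a8, Ly6c1 and Ly6c2. Without it Ms4a3 differed by -1.75 and lost its call (adjusted p = 0.0647). Ctsg, cathepsin G (-1.82 ± 0.41), and Prtn3, proteinase 3 (-0.84 ± 0.23), were lower, while Mpo, myeloperoxidase, was at 13.09, 13.18 and 13.21 in FL MPP, against 13.36, 13.47 and 13.36 in BM MPP, and was not called (-0.23 ± 0.20). Leaving out single MPP arrays gave 6 to 9 lower, and the restricted fit 2 of the 16.

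Receptors and transcription factors of the myeloid lineage gave fewer calls than the granule genes. Of 26 measured, 3 were lower (Ly6c2, Ly6c1 and Klf4), none was higher and the median was -0.11. Ly6c2, a surface antigen of monocytes and of some progenitors, was at 7.33, 6.12 and 7.28 in FL MPP, against 11.73, 11.82 and 11.64 in BM MPP (-4.82 ± 0.34), and its close paralog Ly6c1 differed by -4.54 ± 0.32. Probes of these paralogs can share targets, so the signal of each is uncertain. The lineage regulators Cebpa (-0.04), Spi1 (0.09), Gfi1 (-0.02) and Cebpe (-0.48) and the receptor genes Csf1r (0.59) and Csf3r (-0.33) were not called.

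The largest difference of all was in a lymphoid gene. Dntt, the polymerase that adds nucleotides at antigen receptor joints, was at 4.94, 5.37 and 5.34 in FL MPP, against 11.87, 11.51 and 11.52 in BM MPP, 85.5-fold lower in FL MPP (adjusted p = 3.54e-09). The FL arrays lay below the first quartile of their array and the BM arrays among the bright genes. Of 23 lymphoid priming genes, 6 were lower and 2 higher, with a median of -0.02. Flt3, the cytokine receptor of lymphoid-primed progenitors, was lower (-0.64 ± 0.15), as were the B cell adaptor gene Blnk (-1.94 ± 0.28) and Ly6d (-1.31 ± 0.27), a marker of B-lineage-committed lymphoid progenitors. Ccr9, the chemokine receptor of thymus-homing cells, was at 9.91, 9.87 and 9.52 in FL MPP, against 7.71, 7.47 and 7.40 in BM MPP (2.24 ± 0.37), and Cnn3, an actin-binding calponin, was higher by 1.52 ± 0.24. Ikzf1 (0.08), the interleukin 7 receptor gene Il7r (0.49) and Rag2 (0.87 ± 0.25) were not called. The list thus held members that moved in both directions. In the restricted fit 2 were lower and none higher.

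Early B cell genes were lower in 6 of 17 measured and higher in 1, with a median of -0.45. Jchain, the joining chain of secreted antibodies, was at 5.398, 6.10 and 5.32 in FL MPP, against 11.23, 10.87 and 10.55 in BM MPP, 38.7-fold lower in FL MPP (adjusted p = 3.48e-07). Vpreb1, part of the surrogate light chain of the pre-B cell receptor, was at 8.53, 8.25 and 8.42 in FL MPP, against 11.02, 10.27 and 10.33 in BM MPP (-2.14 ± 0.29). In both genes BM MPP a was highest. The mean over the 17 genes was 7.76 to 8.06 in FL MPP, against 9.21, 8.60 and 8.68 in BM MPP a, b and c, so that array a was highest there too. Vpreb3 (-1.86 ± 0.36) and Cd79a, a signalling chain of the B cell receptor (-1.21 ± 0.33), were lower, and the adaptor gene Bank1 was higher (1.39 ± 0.22). The B lineage transcription factors Ebf1 (-0.25) and Pax5 (-0.87) were not called. Among T and NK cell genes 3 of 21 were lower and none higher, with a median of -0.32, and Gzmb (granzyme B) and Klrb1c differed by -0.85 ± 0.17 and -0.79 ± 0.17. Gimap genes, which encode GTPases known for supporting lymphocyte survival, were higher in 3 of 8, with a median of 0.43, led by Gimap5 (1.13 ± 0.21) and Gimap9 (1.03 ± 0.20). With a single MPP array left out, 1 to 3 of the T and NK cell genes were lower. In the restricted fit none of the 8 Gimap genes passed, 2 early B cell genes were lower, and no T and NK cell gene was called (9 were from only the 6 MPP arrays).

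Genes of antigen presentation were lower in FL MPP. MHC class II molecules present peptides to helper T cells, and 8 of 10 genes measured were lower with none higher, at a median of -1.63. As many were lower in LT-HSC (median -1.66) and in ST-HSC (median -1.47). H2-Eb1, a class II beta chain, was at 7.83, 7.58 and 7.63 in FL MPP, against 10.93, 10.93 and 11.08 in BM MPP (-3.30 ± 0.25, adjusted p = 1.04e-07). H2-Ab1, the beta chain of the second class II molecule, was at 8.15, 8.37 and 8.11 in FL MPP, against 10.77, 10.88 and 10.96 in BM MPP (-2.66 ± 0.26). In each of the 8 genes the FL arrays lay below the BM arrays, as they did in every gene called lower. The peptide-loading genes H2-DMa (-1.58 ± 0.15) and H2-DMb1 (-1.69 ± 0.15) and the loading regulator H2-Ob (-2.26 ± 0.14) were lower too. Ciita, the coactivator of class II transcription, was not called (0.07). In class I, which is carried by nearly all cells, 10 of 18 genes were lower, none was higher and the median was -0.84. The invariant chain B2m was at 11.73, 11.76 and 11.84 in FL MPP, against 12.87, 12.81 and 12.86 in BM MPP (-1.07 ± 0.12), and the class I heavy chain gene H2-K1 was at 11.01, 10.98 and 10.97 in FL MPP, against 12.58, 12.59 and 12.65 in BM MPP (-1.62 ± 0.13). H2-Q4 (-1.92 ± 0.20) and H2-D1 (-1.66 ± 0.14) differed most, the peptide transporter genes Tap1 (-1.33 ± 0.16) and Tap2 (-1.13 ± 0.16) were lower, and the immunoproteasome genes Psmb8 (-0.71 ± 0.13) and Psmb9 (-0.97 ± 0.15) as well, while Psmb10 (0.00) was not called. H2 genes resemble each other in sequence, and probes can read more than 1 of them. In the restricted fit 7 class II and 9 class I genes were lower.

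Interferon response genes were lower in 17 of 45 measured and higher in none, with a median of -0.49. In 34 of the 45 the FL arrays all lay below the BM arrays (13.8% of all genes did). The nuclear body protein gene Sp100 was at 9.16, 9.34 and 9.10 in FL MPP, against 11.13, 11.22 and 11.16 in BM MPP (-1.97 ± 0.16). Iigp1, an immunity-related GTPase that acts on parasite vacuoles, was at 6.41, 6.08 and 6.38 in FL MPP, against 7.97, 8.18 and 7.90 in BM MPP (-1.73 ± 0.22). Both were well separated. The guanylate-binding protein gene Gbp3 (-1.42 ± 0.21), Ifi27 (-1.28 ± 0.12) and the interferon regulatory factors Irf7 (-0.86 ± 0.22) and Irf1 (-0.63 ± 0.13) were lower. Isg15 (-0.01), Ifit3 (-0.13) and Mx1 (-0.23), which are strongly induced by type I interferon, were not called. The count was 4 in the restricted fit, from only the 6 MPP arrays it was 28, and leaving out single MPP arrays gave 9 to 13.

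Immediate early genes are induced within minutes of stimulation without new protein synthesis. Of 41, all measured, 27 were lower in FL MPP, none was higher and the median was -0.94. In LT-HSC 19 were lower (median -0.67) and in ST-HSC 32 (median -1.14). Nr4a1, an orphan nuclear receptor induced by antigen receptor and stress signals, was at 8.15, 8.22 and 8.15 in FL MPP, against 11.31, 11.62 and 11.75 in BM MPP (-3.38 ± 0.37, adjusted p = 9.98e-06). The AP-1 component Fos was at 8.38, 8.19 and 8.31 in FL MPP, against 11.14, 11.83 and 11.63 in BM MPP (-3.24 ± 0.25). In both the FL arrays were close together and BM MPP a was the lowest of the BM arrays. BM MPP a was also the lowest BM array in Fosb (-3.32 ± 0.40), Jun (-2.05 ± 0.28), Nr4a2 (-2.62 ± 0.36) and Atf3 (-1.51 ± 0.28). Rgs1, which limits signalling of chemokine receptors, differed most (-3.61 ± 0.30), and Egr1, a zinc finger factor known for keeping stem cells in the niche, was lower by a log2 difference of -2.81 ± 0.39. Dusp1, a phosphatase of MAP kinases, was at 10.29, 10.38 and 10.59 in FL MPP, against 12.83, 12.97 and 12.84 in BM MPP (-2.46 ± 0.17), and Zfp36, which destabilises cytokine mRNAs, differed by -1.72 ± 0.19. Myc (-0.16), Egr3 (-0.08) and Fosl1 (-0.21) were not called. The restricted fit called 13 of the 41 lower.

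Inflammatory chemokines and feedback genes of NF-kB were lower in 10 of 25 measured and higher in none, with a median of -0.45. The chemokine gene Ccl3 was at 8.92, 9.05 and 8.61 in FL MPP, against 11.62, 11.84 and 11.63 in BM MPP (-2.84 ± 0.17, adjusted p = 5.81e-09). Nfkbiz, a nuclear IkB protein, was at 8.82, 8.65 and 8.50 in FL MPP, against 10.64, 11.01 and 11.17 in BM MPP (-2.28 ± 0.27). The groups were separated in both. Tnfaip3, the ubiquitin-editing inhibitor A20 of NF-kB, was at 7.38, 6.35 and 7.41 in FL MPP, against 8.76, 9.41 and 9.08 in BM MPP (-2.04 ± 0.30), with FL MPP b lowest. Nfkbia, the classical IkB, was lower by a log2 difference of -1.08 ± 0.12, and Tnf (-0.05), Il6 (0.20) and Cxcl2 (-0.45) were not called. Of the Toll-like receptors and their partners, 1 of 16 was higher (Tlr12, 0.62 ± 0.14) and 1 lower (Tlr3, the sensor of double-stranded RNA, -1.68 ± 0.25), with a median of -0.21. Tlr12 lost its call without FL MPP b, FL MPP c or BM MPP c (limma adjusted p 0.0535, 0.0839 and 0.0534). Leaving out single MPP arrays gave 6 to 8 chemokine and NF-kB genes lower, and the restricted fit 5.

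In the immediate early, interferon response, class I, and chemokine and NF-kB feedback lists every call was lower. The RefSeq promoters of members of these lists on GRCm38.p6 (250 bases before to 50 after the gene's start) were searched on both strands. The patterns were the cAMP response element TGACGTCA, the AP-1 site TGACTCA, the interferon-stimulated response element GAAANNGAAA, and the CArG box of serum response factor and the NF-kB site, whose patterns allow further letters. Of 32851 promoters in the table, 1.79% held a cAMP response element, 1.63% a CArG box, 5.2% an AP-1 site, 3.44% an interferon-stimulated response element and 8.46% an NF-kB site. Of the 48 promoters of immediate early genes, 8.33% held a cAMP response element, 12.5% a CArG box and 2.08% an AP-1 site. The interferon-stimulated response element was in 51.2% of 41 promoters of interferon response genes and in 31.2% of 16 promoters of class I genes. The NF-kB site was in 62.5% of 24 promoters of chemokine and NF-kB feedback genes and in 37.5% of the 16 class I promoters. It was also in 16.7% of the immediate early and in 19.5% of the interferon response promoters. The AP-1 site was in 14.6% of the interferon response promoters, in 16.7% of the chemokine and feedback promoters and in none of class I. Among interferon response genes the interferon-stimulated response element was in 41.7% of 12 promoters of genes called lower and in 71.4% of 21 of genes not called. The NF-kB site was in 71.4% of 7 promoters of chemokine and feedback genes called lower and in 66.7% of 12 of those not called, and in class I in 55.6% of 9 and in 0 of 5. The interferon-stimulated response element was in 33.3% of 9 class I promoters of genes called lower and in 40.0% of 5 of those not called. In immediate early genes the cAMP response element was in 12.5% of 24 and in 10.0% of 10, and the CArG box in 12.5% and in 0. These splits hold fewer promoters than the lists, so some matches fall in neither part. The CArG box was in 6 of the 48 immediate early promoters, but in 3 of the 24 and 0 of the 10. A match is a description of the letters, not evidence of binding.

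The promoters of Dusp1, Gbp3, Tnfaip3 and B2m are shown, 1 gene of each group that was lower in FL MPP, with the matches in capitals. They lie at chr17:26508423-26508722 on the minus strand (Dusp1), chr3:142559794-142560093 on the plus strand (Gbp3), chr10:19015361-19015660 on the minus strand (Tnfaip3) and chr2:122147437-122147736 on the plus strand (B2m), and are written 5′ to 3′ on the gene's strand.
Dusp1: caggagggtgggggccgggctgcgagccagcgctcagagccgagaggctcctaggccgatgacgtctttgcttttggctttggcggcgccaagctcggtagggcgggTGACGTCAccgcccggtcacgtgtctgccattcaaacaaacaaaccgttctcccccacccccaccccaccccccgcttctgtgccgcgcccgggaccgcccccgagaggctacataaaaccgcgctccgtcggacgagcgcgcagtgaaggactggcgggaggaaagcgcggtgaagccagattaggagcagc
Gbp3: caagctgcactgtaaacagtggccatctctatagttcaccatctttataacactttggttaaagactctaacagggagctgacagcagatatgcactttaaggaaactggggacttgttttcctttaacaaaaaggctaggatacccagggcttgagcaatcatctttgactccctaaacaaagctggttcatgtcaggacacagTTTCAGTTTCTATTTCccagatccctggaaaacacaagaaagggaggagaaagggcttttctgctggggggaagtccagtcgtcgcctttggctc
Tnfaip3: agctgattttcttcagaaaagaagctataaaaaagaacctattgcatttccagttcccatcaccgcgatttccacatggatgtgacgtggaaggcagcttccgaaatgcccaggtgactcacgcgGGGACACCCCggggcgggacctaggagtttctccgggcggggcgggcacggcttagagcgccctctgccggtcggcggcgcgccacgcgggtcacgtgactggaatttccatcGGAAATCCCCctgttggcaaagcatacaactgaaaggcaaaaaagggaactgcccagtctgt
B2m: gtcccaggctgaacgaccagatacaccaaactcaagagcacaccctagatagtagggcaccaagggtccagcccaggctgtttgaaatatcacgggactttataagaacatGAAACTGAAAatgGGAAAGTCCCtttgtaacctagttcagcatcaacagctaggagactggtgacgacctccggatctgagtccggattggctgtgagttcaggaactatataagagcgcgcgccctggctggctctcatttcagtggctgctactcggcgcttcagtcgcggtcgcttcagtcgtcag
In Dusp1 the capitals mark a cAMP response element at -143 to -136 from the start. In Gbp3 they mark a pair of overlapping interferon-stimulated response elements on the reverse strand, at -45 to -36 and -39 to -30. In Tnfaip3 they mark NF-kB sites at -125 to -116 and -12 to -3, and the window also holds an AP-1 site that is left in lower case. In B2m an interferon-stimulated response element at -139 to -130 stands just before an NF-kB site at -126 to -117.

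**Figure D3:**
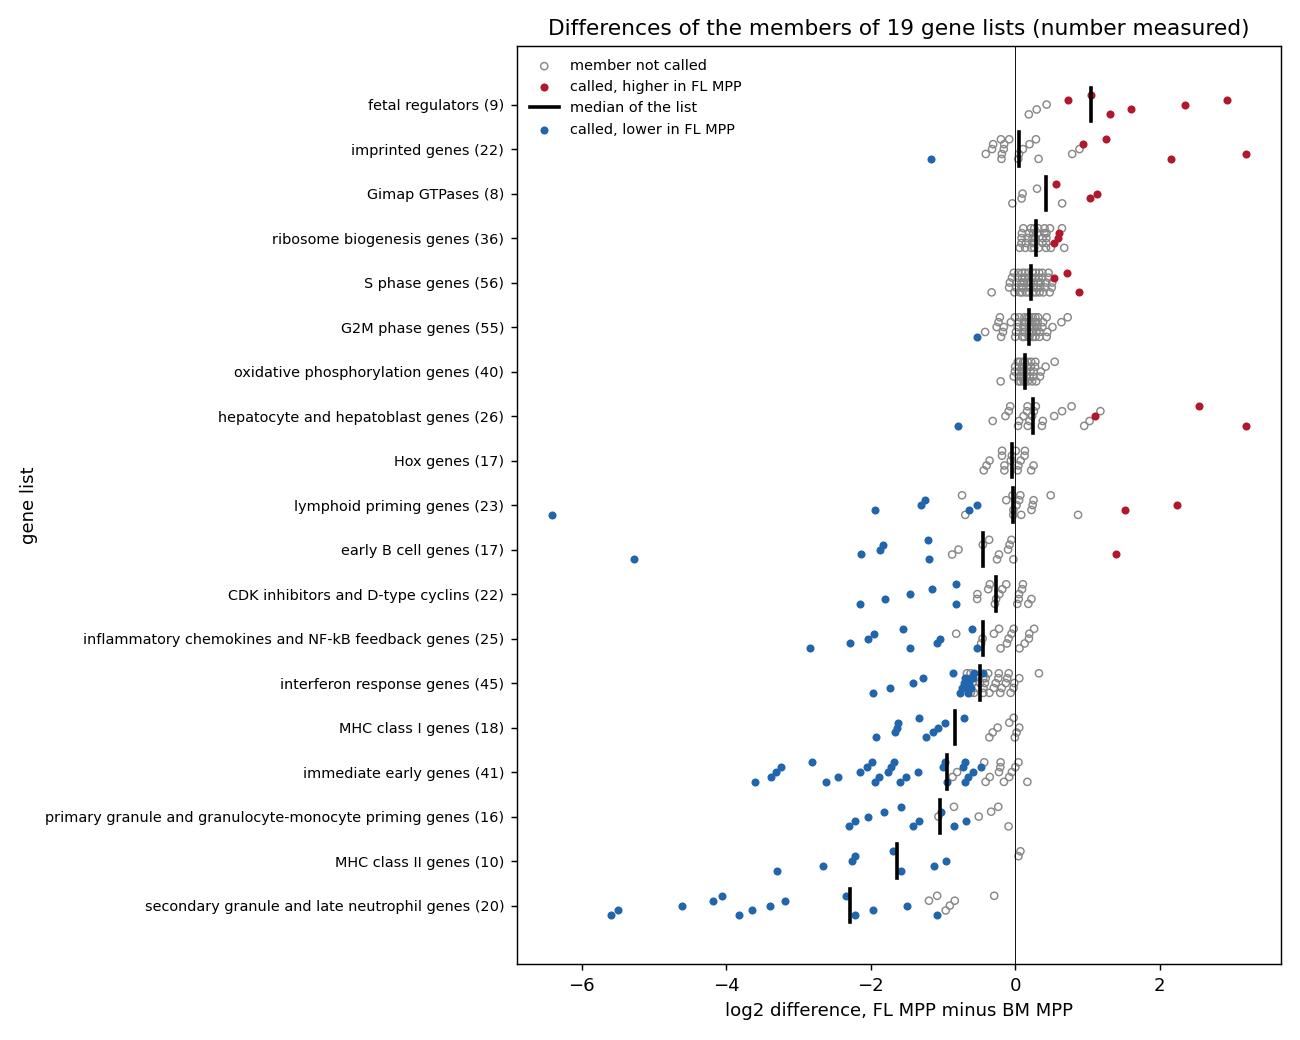
Each row is 1 of 19 gene lists with the number of members measured in brackets, each point a member at its log2 difference, FL MPP minus BM MPP (horizontal axis), filled where it was called, and the black bar the list's median. The medians run between 1.05 for fetal regulators at the top and -2.28 for secondary granule genes at the bottom, and the proliferation and metabolism lists sit in a narrow band just above 0.

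Some inhibitors of the cell cycle were lower in FL MPP, and few genes of replication and mitosis were called. Of 22 CDK inhibitors, D-type cyclins and related genes, 6 were lower, none was higher and the median was -0.27. Cdkn1a, the p53 target p21, was at 9.49, 9.24 and 9.52 in FL MPP, against 11.14, 11.20 and 11.33 in BM MPP (-1.81 ± 0.22, adjusted p = 3.93e-05), and the antiproliferative gene Btg2 was at 7.95, 7.85 and 7.22 in FL MPP, against 9.60, 9.94 and 9.93 in BM MPP (-2.15 ± 0.23). Both were well separated. Cdkn2c (p18, -1.45 ± 0.16), Cdkn1b (p27, -1.16 ± 0.19) and the pocket protein gene Rbl2 (-0.82 ± 0.10) were lower, and Cdkn1c (p57, 0.11) and Cdk6 (-0.52) were not called. The restricted fit called 3 of the 22 lower. Of 56 S phase genes 3 were higher (Ccne1, the G1 to S cyclin E1, 0.88 ± 0.23; the histone chaperone gene Nasp, 0.72 ± 0.19; the replication helicase gene Gins2, 0.54 ± 0.15) and none was lower, with a median of 0.22. In 36 of the 56 all FL arrays lay above all BM arrays, which 19.1% of all genes did. Each of the 3 calls was lost whichever single MPP array was left out, and from only the 6 MPP arrays 17 were higher. Of 55 G2M phase genes 1 was lower (Hjurp, the centromere histone chaperone, -0.53 ± 0.14) and none higher, with a median of 0.19. Hjurp lost its call whichever single MPP array was left out (adjusted p 0.0616 to 0.125). From only the 6 MPP arrays 8 were higher and 2 lower.

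Ribosome biogenesis genes lay slightly higher in FL MPP. All 36 measured had a positive difference, with a median of 0.29, beside 0.04 over all genes. In 30 the FL arrays all lay above the BM arrays, which 19.1% of all genes did. In the fit over all arrays 3 were higher, the processome genes Bysl (0.60 ± 0.17), Rrp9 (0.59 ± 0.14) and Utp4 (0.53 ± 0.12), and from only the 6 MPP arrays 16. Leaving out single MPP arrays gave 0 to 2 and the restricted fit none, and Bysl lost its call whichever array was left out (adjusted p 0.0846 to 0.184) and with a replicate block over 18 arrays (0.0681). Of 40 oxidative phosphorylation genes none was called in either direction, with a median of 0.13 and the largest value in Ndufs1 (0.55). From only the 6 MPP arrays 4 were higher. Of 27 glycolysis and hypoxia genes 1 was higher (Ankrd37, a hypoxia-induced gene, 1.21 ± 0.11) and 1 lower (Vegfa, -1.16 ± 0.23), with a median of 0.16. Of 18 cholesterol synthesis genes, with a median of 0.29, 1 was higher (Hsd17b7, 0.60 ± 0.15). Hsd17b7 lost its call without FL MPP a, FL MPP c, BM MPP a or BM MPP b (limma adjusted p 0.0772 to 0.107). Of 11 fatty acid synthesis genes none was called (median 0.27). Unfolded protein response genes were lower in 6 of 24, with a median of -0.17. The count was 1 to 3 with a single MPP array left out and 1 in the restricted fit. The ER chaperone partner Dnajb9 (-1.18 ± 0.14) was lower, as was the sensor Ern1 (-0.63 ± 0.17). Ern1 lost its call whichever single MPP array other than BM MPP a was left out. Xbp1 (-0.46 ± 0.12), the transcription factor Ern1 activates, was also lower, and the chaperone gene Hspa5 was not called (-0.02).

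Stem cell genes moved in both directions, 3 of 35 higher and 5 lower, with a median of -0.02. Pdzk1ip1, a gene of stem cells and early progenitors, was at 7.001, 6.66 and 6.78 in FL MPP, against 9.48, 9.41 and 9.57 in BM MPP (-2.67 ± 0.28), and the imprinted Ndn was the most raised member. Fgd5, a guanine nucleotide exchange factor used to mark stem cells, was at 9.72, 9.72 and 9.71 in FL MPP, against 8.14, 7.83 and 7.97 in BM MPP (1.74 ± 0.21). Hlf (-0.22), Mecom (-0.47) and Procr (-0.47) were not called. Among hematopoietic transcription factors 1 of 35 was higher (Mycn) and 4 lower, with a median of -0.08. Nfia, a nuclear factor I protein, was at 8.37, 8.11 and 8.02 in FL MPP, against 10.37, 10.17 and 10.14 in BM MPP (-2.06 ± 0.23), Nfix differed by -0.90 ± 0.19 and Lmo2, a bridging factor of stem cell complexes, by -0.72 ± 0.17. Runx1 (0.12), Meis1 (-0.72) and Ikzf2 (0.09) were not called. None of 17 Hox genes was called (median -0.05), with a largest absolute difference of -0.44 for Hoxa5. Of 17 Krüppel-like factors 4 were lower (median -0.28), with Klf6 at -1.88 ± 0.19 and Klf9 at -1.72 ± 0.24. Of 25 Polycomb genes 1 was higher (median 0.04), beside 5.47% of all genes called. This was the chromodomain gene Cbx2 (0.45 ± 0.13, limma adjusted p = 0.0484). Cbx2 was not called whichever FL array, or BM MPP a or b, was left out. Nor was it called with quantile normalization (0.071) or the trend and robust setting (0.0571). Of 14 DNA methylation genes 1 was higher, the de novo methyltransferase gene Dnmt3b, at 9.37, 9.40 and 9.47 in FL MPP, against 7.68, 8.25 and 8.08 in BM MPP (1.41 ± 0.24; median 0.17).

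Receptors through which progenitors read their surroundings moved in both directions, with 12 of 76 in 3 lists called, beside 5.47% of all genes. Of 32 hematopoietic cytokine receptors 1 was higher and 4 were lower, with a median of -0.08. The interleukin 1 receptor gene Il1r1 was at 6.93, 7.11 and 7.76 in FL MPP, against 9.17, 8.97 and 9.06 in BM MPP (-1.80 ± 0.22), the interleukin 18 receptor gene Il18r1 differed by -1.36 ± 0.25, and Il5ra, the interleukin 5 receptor, was higher (1.38 ± 0.26). Of 17 chemokine receptors 1 was higher and 2 were lower (median -0.04). Cxcr4, the receptor that retains cells in the marrow through Cxcl12, was at 9.96, 9.90 and 10.07 in FL MPP, against 10.96, 10.78 and 10.86 in BM MPP (-0.89 ± 0.15), the opposite direction to Ccr9 above. Of 27 homing and adhesion receptors 1 was higher and 3 were lower (median 0.12). Alcam, an adhesion molecule of the immunoglobulin family, was at 8.93, 8.81 and 8.59 in FL MPP, against 11.01, 10.95 and 10.97 in BM MPP (-2.20 ± 0.15), and the integrin gene Itga9 was at 11.14, 11.17 and 11.20 in FL MPP, against 9.66, 9.54 and 9.76 in BM MPP (1.52 ± 0.18). Itga4 (0.19) and Cd44 (-0.29) were not called. With a single MPP array left out, 2 to 3 cytokine, 1 chemokine and 1 to 2 adhesion receptors were lower.

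Markers of other cell types that a sort from either tissue could hold were measured the same way. Of 26 hepatocyte and hepatoblast genes 3 were higher, 1 was lower and the median was 0.25. Dlk1 was the largest. Alb, albumin, was at 9.79, 9.43 and 8.87 in FL MPP, against 7.02, 6.56 and 6.88 in BM MPP (2.54 ± 0.69, limma adjusted p = 0.0363). Its call was lost whichever single MPP array was left out (2.33 to 2.79, adjusted p 0.0651 to 0.146). It was also lost with a replicate block over 18 arrays (0.0594). Ttpa, the tocopherol transfer protein, was higher by 1.11 ± 0.26, transferrin, Trf, was lower (-0.79 ± 0.21) but in none of the fits that left out a single MPP array, and Afp (1.18 ± 0.62), Ttr (0.38), Apoa1 (0.12) and Hnf4a (-0.09) were not called. The mean over the 26 genes was 7.74 to 7.90 in FL MPP, against 7.21 to 7.42 in BM MPP, and from only the 6 MPP arrays 10 were higher. The part of hepatic RNA in the values of Alb and Dlk1 was not tested. Of 24 erythroid genes 1 was lower and none higher (median -0.08), and this was Car1, carbonic anhydrase 1, at 6.62, 6.92 and 7.14 in FL MPP, against 10.57, 10.95 and 10.65 in BM MPP (-3.83 ± 0.47). The embryonic globin gene Hbb-y was at 9.44, 7.85 and 7.02 in FL MPP, against 6.00, 6.19 and 6.70 in BM MPP, with FL MPP a highest, and was not called (1.81 ± 0.76). The red cell factors Gata1 (0.04) and Klf1 (-0.23) were not called.

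Of 25 megakaryocyte and platelet genes 2 were higher and 4 lower (median -0.08). Mmrn1 led the higher ones, and the adhesion receptor P-selectin, Selp, was at 8.90, 8.79 and 9.15 in FL MPP, against 10.48, 10.61 and 10.74 in BM MPP (-1.67 ± 0.15). Thbs1, thrombospondin 1 (-1.66 ± 0.21), and the platelet chemokine Pf4 (-0.88 ± 0.16) were lower, and Vwf (-0.01) was not called. Among mast cell, basophil and eosinophil genes 1 of 19 was higher (Il5ra) and 3 were lower (median -0.19). The basophil proteases Mcpt8 and Prss34 differed by -3.24 ± 0.40 and -2.35 ± 0.46, and Mcpt8 was at 7.02, 6.71 and 6.88 in FL MPP, against 10.39, 10.11 and 9.84 in BM MPP. Of 21 tissue macrophage genes 4 were lower (median -0.28), with the scavenger receptor Cd163 at -1.74 ± 0.26 and the complement gene C1qa at -1.32 ± 0.26, while Adgre1 (0.20) was not called. Of 21 endothelial genes 3 were higher and 1 was lower (median 0.16), with Ramp2, a receptor activity-modifying protein, at 1.61 ± 0.16 and Kdr, a receptor of vascular endothelial growth factor, at 0.83 ± 0.21, while Cdh5 (0.64) was not called. Kdr lost its call in 5 of 6 fits that left out a single MPP array (adjusted p 0.0595 to 0.16) and in the restricted fit (0.377). The macrophage count was 2 to 3 with a single MPP array left out. Of 23 stromal genes 1 was higher, the matrix protein gene Postn (1.95 ± 0.22), and 2 were lower, the vitamin K-dependent ligand gene Gas6 (-1.09 ± 0.19) and the proteoglycan gene Bgn (-0.92 ± 0.17), with a median of -0.01, and Col1a1 (0.03) was not called. The part of these cells in the differences was not tested.

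The same fit asked in which genes the fetal to adult difference of MPP was other than that of the stem cells, as the MPP difference minus the mean of the LT-HSC and ST-HSC differences. For Dntt and Selp the difference was more negative in MPP than in the stem cells. For Fscn1 it was more positive, and for Igf2 it was positive but smaller. For Cdh17 it was more positive than the mean of LT-HSC and ST-HSC, but close to that of ST-HSC alone (4.28 in MPP, 3.87 in ST-HSC, 0.69 in LT-HSC). In all, 53 genes (0.272%) passed at an adjusted p under 0.05, 20 with a positive value (0.103%) and 33 with a negative one (0.169%), and the median over all genes was 0.01. Of the 53, 33 were also called between FL MPP and BM MPP. Only 1 gene, Cdh17, passed in the restricted fit.

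Igf2 was at 9.99, 9.59 and 9.76 in FL MPP, against 8.79, 8.28 and 8.53 in BM MPP, a difference of 1.25 ± 0.16. In LT-HSC it differed by 2.87 and in ST-HSC by 3.31, an interaction of -1.84 ± 0.20 (adjusted p = 0.000279). Mir675, beside Igf2 on the chromosome, differed by 4.47 in LT-HSC and 4.84 in ST-HSC, against 3.81 in MPP, and its interaction of -0.85 ± 0.20 did not pass (adjusted p = 0.0846). Dntt differed by -1.42 in LT-HSC and -3.84 in ST-HSC, against -6.42 in MPP (interaction -3.79 ± 0.44, adjusted p = 0.000521). FL MPP, FL ST-HSC and FL LT-HSC all had Dntt near 5, and the values of BM differed between populations, with the highest in MPP.

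For other genes the difference was called in MPP and not in either stem cell population. Pdzk1ip1 differed by -2.67 in MPP, against -0.33 in LT-HSC and -0.52 in ST-HSC (interaction -2.25 ± 0.35), and Selp by -1.67 in MPP, against 0.00 in LT-HSC and 0.23 in ST-HSC (interaction -1.78 ± 0.19). Neither gene passed in LT-HSC or in ST-HSC. The bicarbonate transporter gene Slc4a8 (interaction -1.97 ± 0.24), the choline dehydrogenase gene Chdh (-2.08 ± 0.36) and Hepacam2 (-1.60 ± 0.24) had similar values, and none of the 3 passed in LT-HSC or in ST-HSC. With a positive interaction, Mmrn1 differed by 2.31 in MPP, against 0.23 in LT-HSC and 0.85 in ST-HSC, where it was called too (interaction 1.77 ± 0.26), and Hpgds, a prostaglandin D synthase, by 1.32 in MPP, against -0.38 and 0.00 in LT-HSC and ST-HSC (interaction 1.51 ± 0.26). Cavin2, a coat protein of caveolae, was higher in FL MPP (0.998 ± 0.26) and lower in FL LT-HSC (-2.15), with an interaction of 2.03 ± 0.32. In ST-HSC it was not called (0.09). Its MPP means were 6.40 in FL, near the first quartile of the arrays, and 5.40 in BM, below it. How far these values stand above background is unknown. Its MPP call was lost whichever single MPP array was left out (adjusted p 0.0522 to 0.143) and in the restricted fit (0.448). No difference between FL MPP and BM MPP was called for the semaphorin Sema7a (0.00) and the retinaldehyde dehydrogenase Aldh1a1 (-0.20), which were lower in FL in both stem cell populations.

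**Figure D4:**
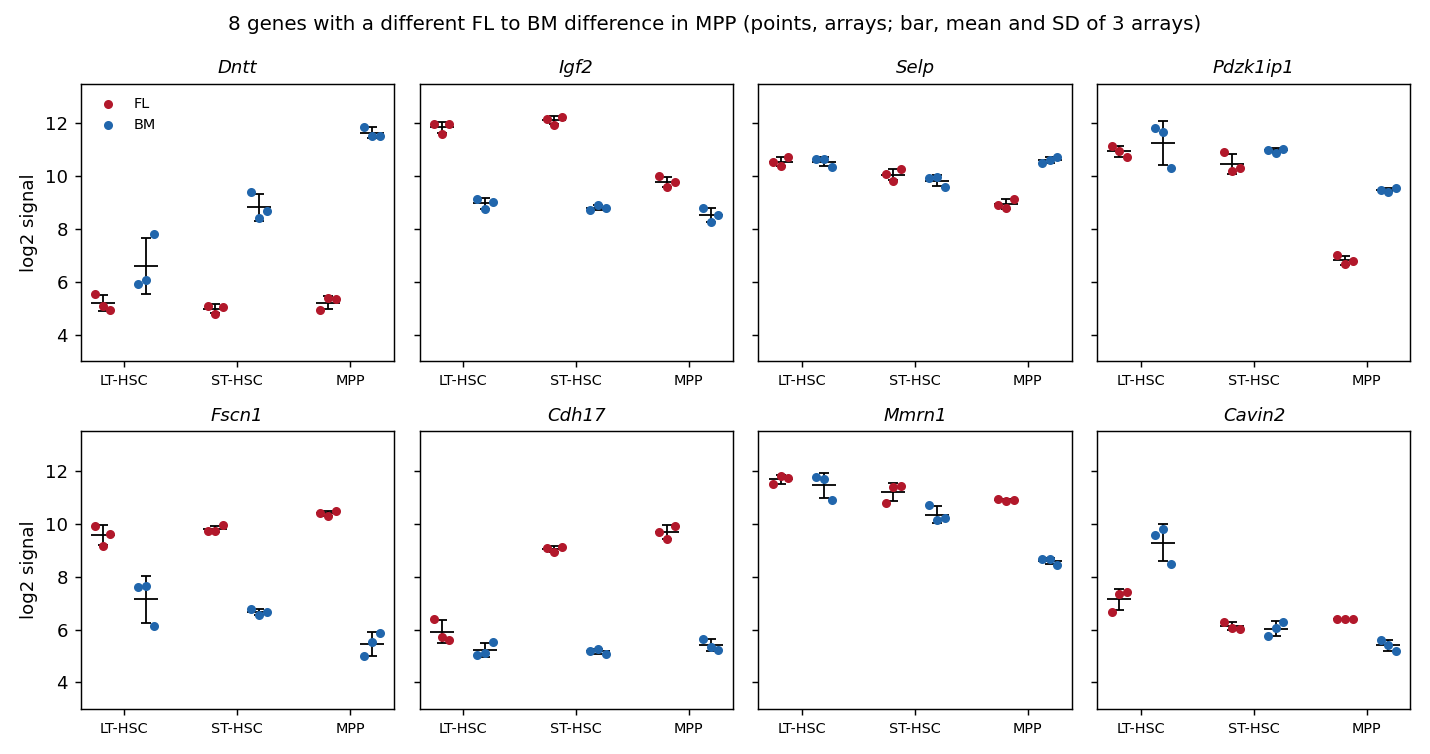
Log2 signal (vertical axis) of 8 genes in LT-HSC, ST-HSC and MPP, with FL (red) left of BM (blue) in each population, points being the 3 arrays of a group and bars the mean ± SD. In Dntt the BM arrays climb with population while FL stays near 5; in Selp, Pdzk1ip1 and Mmrn1 the sources separate by more in MPP than in the stem cells, and in Igf2 by less.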

How the data were processed

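Total RNA of sorted cells was measured on Affymetrix arrays. The authors deposited a log2 signal for each probe set on each array. Per the submitters' processing notes R 3.5.01 and oligo were used; how values were normalized is not given in the sources that were read. The log base is not written in the labels and was taken from the values and from oligo's usual output. Of 22203 probe sets, 19572 carried 1 gene symbol in the platform annotation, all matched to RefSeq (GRCm38.p6) by gene ID, and 2631 carried none. The brightest probe set of a gene was kept (67 set aside, 19505 genes left). Means of 6 groups over 18 arrays were fitted with limma 3.58.1 in R 4.3.3 (lmFit, eBayes), and p-values were adjusted by Benjamini-Hochberg over all genes with a threshold of 0.05. The interaction contrast came from the same fit. The median standard error was 0.17 for MPP and 0.21 for the interaction. The fit was tested on simulated data. Alternatives were leaving out arrays, other scaling, filters, probe set rules, weights, eBayes settings, a fit of MPP only and a replicate block.

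Members and the 44 gene lists were chosen with earlier results of these data known. Listed genes without a probe set were not analysed here. Named genes are the 15 largest differences in each direction among called genes whose arrays did not overlap, the 10 largest in each direction of the interaction, members of the lists (always the 2 largest called), sort markers, Y-linked genes, Ezh2 and called microRNA genes. Figures were drawn with matplotlib 3.10.9.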

Additional observations from a re-analysis of the deposited data

Results flagged for a closer look

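The genes here have a fetal to adult difference in MPP that differs from the mean of those in LT-HSC and ST-HSC at a limma adjusted p under 0.05, and are the 10 largest in each direction. The values are interactions on the log2 scale, FL minus BM in MPP less the mean of FL minus BM in the stem cells. Positive values were 2.31 for Cybb, 2.16 for Fscn1, 2.03 for Cavin2, 2.00 for Cdh17, 1.77 for Mmrn1, 1.66 for Etl4, 1.65 for Pdzph1, 1.59 for Sema7a, 1.51 for Hpgds and 1.42 for Aldh1a1. In Cybb, the oxidase subunit of phagocytes, FL was below BM by -4.69 in LT-HSC, -2.31 in ST-HSC and -1.19 in MPP, where it was not called. In Cdh17 FL was above BM by 3.87 in ST-HSC and 4.28 in MPP but by 0.69 in LT-HSC, so the interaction rests on the LT-HSC arrays.

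Negative values were -3.79 for Dntt, -2.25 for Pdzk1ip1, -2.08 for Chdh, -1.97 for Slc4a8, -1.84 for Klrb1c, -1.84 for Igf2, -1.78 for Selp, -1.62 for Dach1, -1.60 for Hepacam2 and -1.58 for Ccl4. In Klrb1c FL was below BM in MPP (-0.79) and above it in ST-HSC (1.54). Dach1, a transcriptional corepressor, was at 6.94, 7.02 and 7.11 in FL MPP, against 9.59, 9.84 and 9.76 in BM MPP. Without 4 LT-HSC and ST-HSC arrays whose values spread over a narrower range, each of the 20 kept its call. Without the arrays described as sgEzh2, 1 of the 20 (Cdh17) kept its call.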

How the results depend on the processing

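No gene called between FL MPP and BM MPP changed direction under any alternative. Leaving out single MPP arrays gave 635 to 725 genes called, 198 to 230 higher, 432 to 514 lower and 22 to 31 in the interaction; the calls fell by over 1.5 times without any 1 array other than BM MPP a. Counts in the order called, higher, lower and interaction were 3606, 1958, 1648 and 763 with array weights; 261, 70, 191 and 1 without the arrays described as sgEzh2; and 2136, 960, 1176 and 175 without 4 arrays with a narrower spread of values (FL LT-HSC b, BM ST-HSC b and c, BM LT-HSC c), an alternative chosen after seeing the data. Only the 6 MPP arrays gave 2760, 1413 and 1347 for called, higher and lower, and a fold of at least 2 gave 416, 109 and 307. The share of higher genes was 35.2% as reported, 54.3% with array weights and 51.2% from the 6 MPP arrays. Median centring, quantile normalization, the filter on dim genes, probe set rules and the trend and robust setting gave 1065 to 1168 called. The causes were not tested. Deviations from the group means had an r of 0.024, -0.131 and -0.099 between FL MPP and BM MPP arrays of letter a, b and c. Between arrays of unlike letters r was -0.072 to 0.141. Deviations within a group are tied to each other, so these values cannot tell whether arrays of a letter were handled together. Sharing of a letter with LT-HSC or ST-HSC was not tested. A replicate block gave 1042 called over 18 arrays, and 2029 (901 higher, 1128 lower) over the 6 MPP arrays. Ezh2, not called at -0.04, changed sign without BM MPP b (0.0252), with array weights (0.0021) and without the sgEzh2 arrays (0.0213), and reached -0.0898 without BM MPP c. Of values for named genes in the MPP comparison, 96 lost their call under an alternative, 27 of them without the sgEzh2 arrays, and 1522 kept their side; of the interaction values 47 lost it, 19 of them without those arrays, and 250 did not.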

Other observations

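The gene families given here were chosen after their values were seen. Of the nuclear factor I genes, Nfic was at 8.58, 8.56 and 8.21 in FL MPP, against 10.29, 10.43 and 10.37 in BM MPP (-1.91 ± 0.21), and Nfia and Nfix were lower as given above, while Nfib was not called (0.79 ± 0.27). Of the inhibitors of DNA binding, which block basic helix-loop-helix factors, Id3 was at 8.47, 8.29 and 8.55 in FL MPP, against 6.78, 6.15 and 6.30 in BM MPP (2.03 ± 0.23), and Id1 was higher by 1.87 ± 0.21, while Id2 (0.55) and Id4 (0.18) were not called. Among guardians against apoptosis, Bcl2 was at 9.80, 9.79 and 9.64 in FL MPP, against 11.63, 11.53 and 11.45 in BM MPP (-1.79 ± 0.15), whereas Bcl2l1 was at 8.92, 8.79 and 8.94 in FL MPP, against 7.77, 7.65 and 7.50 in BM MPP (1.24 ± 0.17). Bcl2a1b (-0.94, adjusted p = 0.0413) and Bcl2a1d (-0.87, adjusted p = 0.0335), close paralogs whose signals are uncertain, were lower, and Mcl1 (-0.33) and Bcl2l2 (-0.07) were not called.

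Of inflammasome genes, the sensor Nlrp3 was at 5.53, 5.59 and 5.49 in FL MPP, against 7.64, 8.48 and 8.16 in BM MPP (-2.56 ± 0.35). The protease Casp1 (-1.87 ± 0.16), its substrate Il1b (-1.56 ± 0.40) and the pore-forming Gsdmd (-0.54 ± 0.10) were lower too, while the adaptor Pycard was not called (0.22). Both stanniocalcins were higher, Stc1 as given above and Stc2 by 1.43 ± 0.20. Among the stefins and their relatives Cstdc5 (1.77 ± 0.41) and Cstdc6 (1.12 ± 0.31) were higher with Stfa1. Stfa2 (0.03), Stfa3 (0.12), Stfa2l1 (-0.07) and Cstdc4 (0.19) were not called. These genes resemble each other, so their signals are uncertain.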
